A study of Cunninghamia lanceolata with 18 samples.

Results

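The lateral buds (LB) of Cunninghamia lanceolata clone C1 were compared with the apical buds (AB) of the same clone. All genes that passed a filter on low counts were taken, and these were 23412 of the 46723 genes in the deposited table. Chinese fir is a timber conifer, and C1 is the clone with the longer internodes of the pair studied, the other being C11. The tissues were sampled when lateral buds first appeared, which was more days after apical bud sprouting in C11 than in C1. No hormone treatment is given for these trees. There were 3 LB libraries and 3 AB libraries of C1, and the upper phloem (UP), the phloem next to the apical bud, had 3 libraries as well. Each clone is 1 genotype, so the replicates hold no genetic variation within C1. The methods call them biological replicates and take them from the trees used to measure hormones, with 3 trees per clone chosen at each sampling. LB and AB libraries may thus share trees, but the methods do not say which libraries came from the same tree.

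An apical bud carries the shoot apical meristem and suppresses the buds below it, a control known as apical dominance. Auxin moves down the stem from the apex, strigolactones restrain the outgrowth of lateral buds and cytokinins promote it. Very-long-chain fatty acids (VLCFAs) are built by an elongase complex and supply the cuticle, its waxes and the sphingolipids. These pathways order the account of the genes that follows.

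The 6 bud libraries held between 24766529 and 32005160 counts. Levels are given as CPM, counts scaled to a common library total with trimmed mean of M-values (TMM) factors. Calls needed a false discovery rate (FDR) under 0.05 together with a change of 2-fold or more. The libraries of the buds did not separate by tissue. Spearman's correlation of log2(CPM + 1) over the genes tested ranged from 0.9304 to 0.9792 for the 9 pairs of an LB with an AB library, from 0.9469 to 0.9651 within LB and from 0.9431 to 0.9513 within AB. The pair with the highest value among the buds was LB replicate 3 with AB replicate 2, at 0.9792. AB replicate 3 was nearer to the 3 UP libraries, at 0.9576, 0.9609 and 0.9728, than to AB replicates 1 and 2, at 0.9509 and 0.9431.

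The place of each AB library was also read on the 1958 genes called between UP and LB, a comparison that uses no AB library. On a scale where the LB mean is 0 and the UP mean is 1, the median place over these genes was 0.131 for AB replicate 1, 0.124 for AB replicate 2 and 0.633 for AB replicate 3. The LB and UP libraries were placed against the other libraries of their tissues. They lay between -0.0752 and 0.119 for LB and between 0.911 and 1.05 for UP. The genes were called between these same libraries, so these narrow ranges follow from the choice and give no measure for AB. In C11, whose libraries took no part in the choice, AB lay at 0.0401, 0.495 and 0.178 and LB at 0.374, 0.0137 and 0.393. AB replicate 3 of C1 lay apart from the other AB libraries of C1 for genes higher in UP, at 0.619, and for genes lower in UP, at 0.642. What sets this library apart was not tested, and counts, lists and the genes it moved most are given without it as well.

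**Figure D1:**
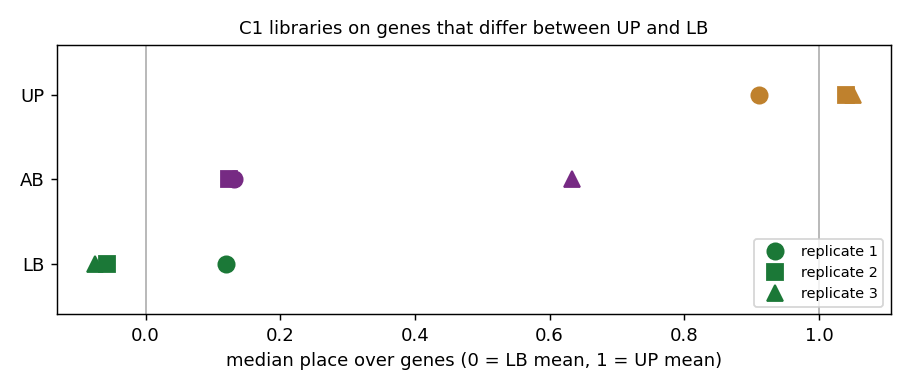
Place of each C1 library between LB and UP, as the median over 1958 genes called between those tissues. The horizontal axis has the LB mean at 0 and the UP mean at 1, rows are tissues and symbols are replicates. AB replicates 1 and 2 lie at 0.131 and 0.124, near LB, and AB replicate 3 lies at 0.633.

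No gene passed the test between LB and AB in C1. edgeR's quasi-likelihood test called 0 of 23412 genes, 0.0% of those tested, and the smallest adjusted p was 0.328. At an unadjusted p under 0.05 there were 1160 genes, 4.95% of those tested. edgeR called 0 genes in each fit that left out a library, AB replicate 3 among them, and 0 with LB replicate 3 and AB replicate 2 both left out. The typical difference was small, with a median absolute log2 fold change of 0.217, and 1740 genes (7.43%) were fitted as differing by 2-fold or more. The 3 LB libraries lay above the 3 AB libraries for 1077 genes (4.6%) and below them for 1321 (5.64%).

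DESeq2 called 124 of the same 23412 genes, 0.53%, of which 35 (0.149%) were higher in LB and 89 (0.38%) lower. Its count depended on the libraries kept. Without AB replicate 3 it called 117 genes, 64 higher in LB and 53 lower, so the preponderance of lower genes was no longer seen, and 61 of these genes were among the 124. Without AB replicate 2 it called 408 genes and without LB replicate 1 it called 73. Of the 124 genes, 34 were called in all 6 fits that left out a library, 5 of them higher in LB and 29 lower. The 124 genes include 1 of the 926 tested members of the pink module described below, where 0.53% of all genes tested were called.

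**Figure D2:**
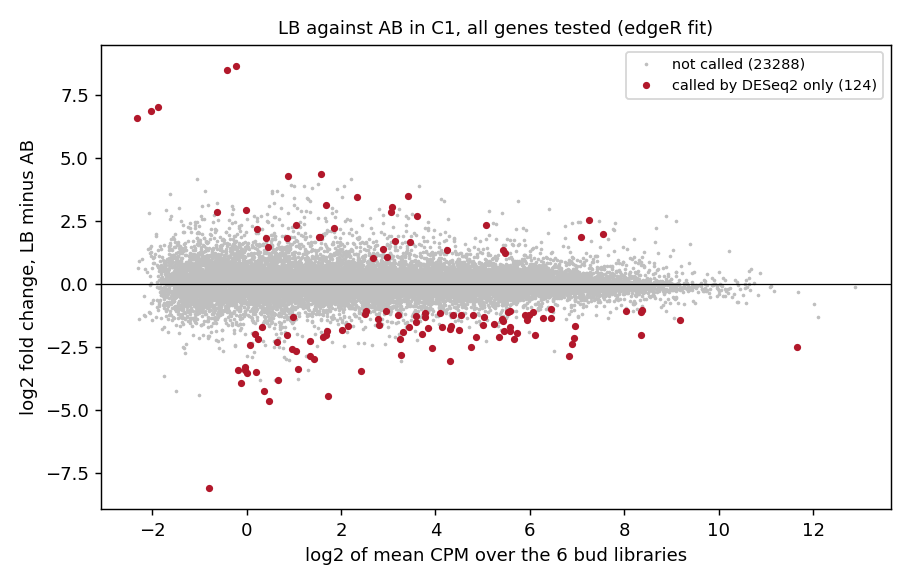
Log2 fold change of LB over AB (vertical axis, edgeR fit) against the log2 of the mean CPM of the 6 bud libraries (horizontal axis), with a point for each of the 23412 genes tested. Red points are the 124 genes that DESeq2 called, 35 above and 89 below the line at 0, and edgeR called none.

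The genes with the smallest unadjusted p carry no name in the sources used here and are given as not passing edgeR's adjusted threshold. Cula0011886 had 19.3, 22.2 and 26.1 CPM in LB and 71.3, 76.8 and 72.4 CPM in AB, and the groups did not overlap. Its log2 fold change was -1.72 (SE 0.15; edgeR, unadjusted p = 1.4e-05, adjusted p = 0.328), and AB replicate 3 lay with the other AB libraries. Cula0000890 had 18.2, 18.8 and 25.7 CPM in LB and 80.4, 59.4 and 85.4 CPM in AB, with a log2 fold change of -1.85 (SE 0.21; edgeR, adjusted p = 0.462). Both genes were lower in all 3 LB libraries than in any AB library.

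Among genes that were higher in LB, Cula0027179 had 19.2, 10.5 and 14.4 CPM in LB and 2.21, 1.32 and 2.47 CPM in AB. Its log2 fold change was 2.87 (SE 0.37; edgeR, adjusted p = 0.462). NewGene_3286, a locus outside the reference annotation, had 7.71, 6.06 and 4.15 CPM in LB and 1.58, 1.25 and 0.979 CPM in AB, with a log2 fold change of 2.22 (SE 0.36; edgeR, adjusted p = 0.66). DESeq2 called all 4 of these genes, and it called each of them in the 6 fits that left out a library.

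A few genes were counted in 1 bud only. There were 6 genes with 0 counts in all 3 AB libraries and at least 10 in every LB library, where they had 10 to 92 counts. There was 1 gene with 0 counts in LB and 14 to 54 counts in the AB libraries. All 7 genes had counts in UP, and edgeR's smallest adjusted p among them was 0.774, with DESeq2 calling 5 of the 6 and the 1.

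The VLCFA genes that the study placed at the centre of its pink module, a set of genes grouped by their co-expression, overlapped between the buds. The module and its hub genes were chosen by the study on these libraries, so their direction is not independent evidence. All 20 hub genes were tested and all 20 had a higher mean in LB, against 49.3% of all genes tested, with log2 fold changes from 0.02 to 0.63. Their median was 0.24, beside a median of -0.005 over all genes tested. None was called by edgeR, which called 0.0% of all genes tested, or by DESeq2, which called 0.53%. LB and AB overlapped for each of the 20. Over all genes tested, LB lay above AB without overlap for 4.6% and below it for 5.64%. With 20 genes, these counts are near the shares over all genes and do not set the hub genes apart.

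ECR, the enoyl-CoA reductase of the elongase complex (Cula0015187), had 258.4, 372.5 and 369.2 CPM in LB and 389, 223.9 and 196.1 CPM in AB. AB replicate 1 was the highest of the 6 libraries and AB replicate 3 the lowest. The log2 fold change was 0.29 (SE 0.30; edgeR, adjusted p = 0.963), and 0.14 without AB replicate 3. KCS1, a condensing enzyme of the same complex (Cula0031243), had 36.5, 54.6 and 62.7 CPM in LB and 81.3, 25.0 and 22.0 CPM in AB, a log2 fold change of 0.24 (SE 0.54; edgeR, adjusted p = 0.985). It showed the same order of the AB libraries as ECR, and its fitted value turned to -0.02 without AB replicate 3 and to -0.04 without AB replicate 2.

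Hub genes that act after elongation overlapped between the buds as well. CYP86B1, a cytochrome P450 that hydroxylates very-long-chain acids for suberin (NewGene_10946), had the largest value of the 20. It had 26.9, 57.7 and 53.5 CPM in LB and 57.1, 21.4 and 9.67 CPM in AB, a log2 fold change of 0.63 (SE 0.64; edgeR, adjusted p = 0.963) that became 0.26 without AB replicate 3 and 1.55 without AB replicate 1. DCR, an acyltransferase of cutin formation (Cula0008822), had 414.8, 550.1 and 674 CPM in LB and 685.3, 368.6 and 363.3 CPM in AB. ABCG11, a transporter that exports cuticle lipids (Cula0028169), had 77.7, 112.7 and 134.6 CPM in LB and 135.1, 77.8 and 59.6 CPM in AB. For these 3 genes AB replicate 1 lay above all LB libraries or within 1 CPM of the highest, and AB replicates 2 and 3 lay below most of them.

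Over the 20 hub genes, AB replicate 1 was the highest of the 6 bud libraries for 14 genes and AB replicate 3 the lowest for 17, against 20.1% and 19.6% of all genes tested. The median log2 fold change was 0.99 without AB replicate 1, 0.03 without AB replicate 2 and 0.05 without AB replicate 3, and 11 of the 20 genes had a higher mean in LB without AB replicate 3. In UP the hub genes were far lower, with KCS1 at 4.11, 0.839 and 1.19 CPM. All 20 were called lower in UP than in LB by edgeR, where 4.49% of the 23922 genes tested were called lower. That comparison shares the LB libraries with LB against AB.

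**Figure D3:**
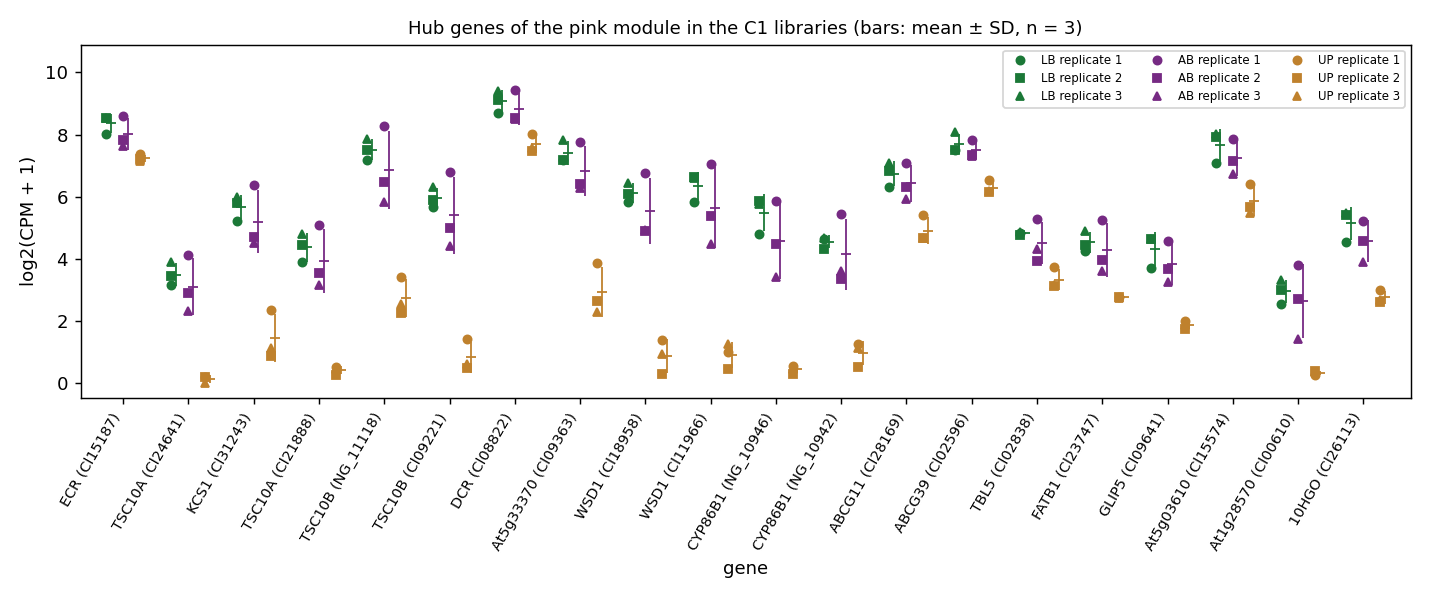
Levels of the 20 hub genes as log2(CPM + 1) in the C1 libraries, with colours for tissues, symbols for replicates and bars for the mean ± SD (n = 3). LB and AB overlap for every gene, AB replicate 1 is the highest bud library for 14 genes, and the UP libraries lie lowest.

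The pink module as a whole had 981 members, of which 926 passed the filter. A higher mean in LB was found for 548 of the 926, with a median log2 fold change of 0.06. edgeR called 0 of them, with 24 (2.59%) at an unadjusted p under 0.05, a smaller share than the 4.95% of all genes tested. LB lay above AB without overlap for 43 members (4.64%, beside 4.6% of all genes tested) and below it for 20 (2.16%, beside 5.64%). Without AB replicate 3 the median was -0.03. DESeq2 called 1 of the 926, where it called 0.53% of all genes tested, so this call does not set the module apart. The gene, Cula0027842, is listed under zeatin biosynthesis, zeatin being a cytokinin. It had 8.74, 15.3 and 30.6 CPM in LB and 82.7, 114.1 and 51.2 CPM in AB, a log2 fold change of -2.20 (SE 0.51; edgeR, adjusted p = 0.949). DESeq2's adjusted p was 0.00603 with all libraries, and the gene was called in 4 of the 6 fits that left out a library.

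Of the module's pathways, 18 were taken as lists. These do not include zeatin biosynthesis. None of them held a gene called by edgeR, which called 0.0% of all genes tested, or by DESeq2, which called 0.53%. A count of 0 in these lists is near those shares. Fatty acid elongation had a median log2 fold change of 0.43, with 14 of 15 genes higher in LB, and glycerolipid metabolism had 0.43, with 13 of 16. Plant-pathogen interaction had 0.37, with 19 of 26. In these 3 lists the median stayed above 0 in each fit that left out a library, between 0.19 and 0.98. AB replicate 3 was the lowest bud library for 13 of 15, 8 of 16 and 15 of 26 genes, against 19.6% of all genes tested. Without AB replicate 3, 10 of 15, 13 of 16 and 17 of 26 genes were higher in LB. In C11 the medians of these lists were below 0, at -0.0994, -0.113 and -0.106. The elongation and plant-pathogen lists are not separate sets, since 12 of the 15 elongation genes (80.0%) are also among the 27 plant-pathogen genes (44.4%). Glycerolipid metabolism shared 0 genes with fatty acid elongation and 1 with plant-pathogen interaction. Sphingolipid metabolism had a median of 0.20 with 14 of 17 genes higher in LB, and cutin, suberine and wax biosynthesis had 0.12 with 24 of 32. The medians of these last lists fell to -0.11 and -0.08 without AB replicate 3 and stood at 1.08 and 0.98 without AB replicate 1. Plant hormone signal transduction had a median of -0.06 and 11 of 23 genes higher in LB. Over the 212 genes tested from these lists and the hub genes, LB lay above AB without overlap for 3 (1.42%) and below it for 4 (1.89%), smaller shares than over all genes tested.

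**Figure D4:**
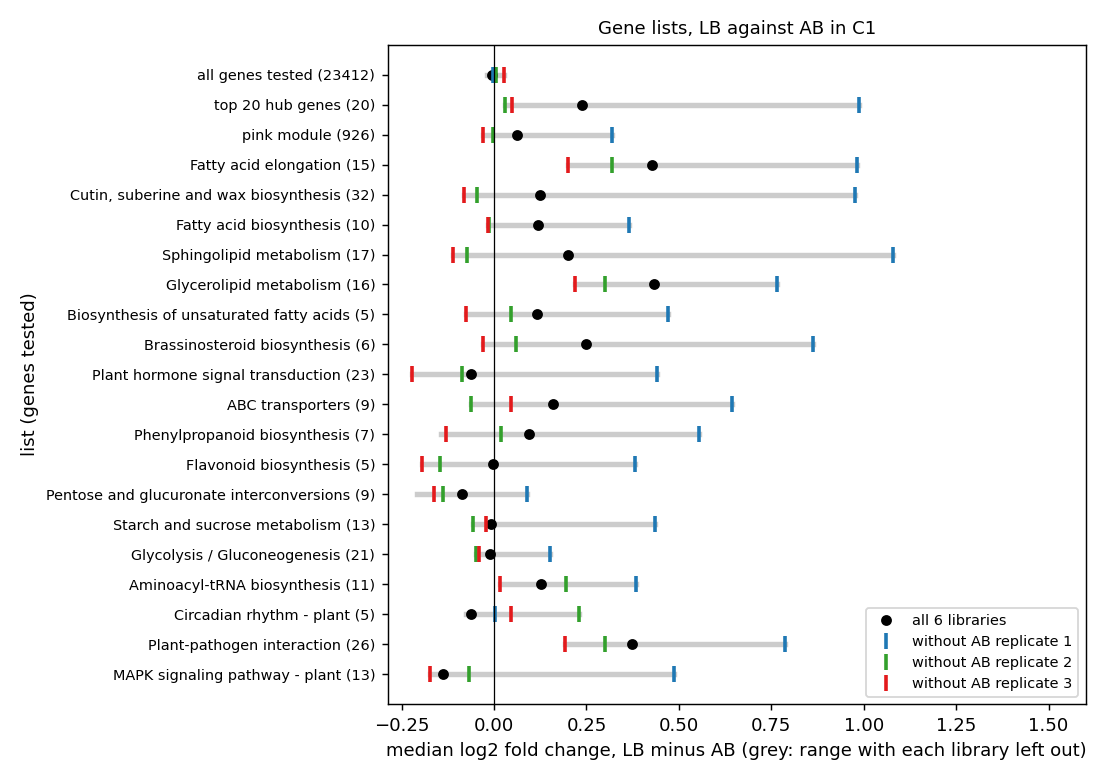
Median log2 fold change of LB over AB for all genes tested, the hub genes, the pink module and its pathways, with the number of genes tested in brackets. Black points use all 6 libraries, coloured ticks leave out 1 AB library and grey bars span the fits that leave out any library. The hub genes move from 0.24 to 0.99 without AB replicate 1 and to 0.05 without AB replicate 3.

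The strigolactone genes with the widest differences were higher in LB, and none passed the test. CCD, a carotenoid cleavage dioxygenase (Cula0015579), had 15.0, 2.92 and 3.69 CPM in LB and 2.17, 2.31 and 2.78 CPM in AB. The groups did not overlap, but LB replicate 1 stood far above the others. The log2 fold change was 1.57 (SE 0.67; edgeR, adjusted p = 0.949) and 0.44 without LB replicate 1. D27, the isomerase that acts before the dioxygenases (Cula0004245), had 8.08, 2.20 and 1.99 CPM in LB and 2.38, 1.61 and 0.783 CPM in AB, a log2 fold change of 1.35 (SE 0.70; edgeR, adjusted p = 0.949) and of 0.40 without LB replicate 1. The same LB replicate 1 was highest, and the groups overlapped. In UP both genes had higher means, with CCD at 24.8, 38.7 and 10.5 CPM and D27 at 11.8, 13.6 and 5.06 CPM. Neither was called between UP and LB (edgeR, adjusted p = 0.187 for CCD and 0.247 for D27). For both genes LB replicate 1 lay above UP replicate 3. CCD4, another carotenoid cleavage dioxygenase (Cula0029135), did not share this direction. It had 8.01, 9.55 and 8.23 CPM in LB and 17.4, 6.32 and 5.44 CPM in AB, and the groups overlapped. Its log2 fold change was -0.19 (SE 0.47; edgeR, adjusted p = 0.985).

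PDR1, a transporter of strigolactone in petunia, had a homolog with an even difference. Cula0032575 had 9.92, 7.28 and 7.23 CPM in LB and 4.03, 5.33 and 4.23 CPM in AB, with no overlap. Its log2 fold change was 0.84 (SE 0.25; edgeR, unadjusted p = 0.0129, adjusted p = 0.949), and it ranged from 0.67 to 0.97 with a library left out. The other PDR1 homolog, Cula0033669, had 13.7, 5.84 and 1.81 CPM in LB and 1.30, 1.35 and 14.9 CPM in AB, so that AB replicate 3 alone of the AB libraries was high. Its log2 fold change was 0.29 (SE 1.14), 2.45 without AB replicate 3 and -0.62 without LB replicate 1. DAD2, the strigolactone receptor of petunia (Cula0022349), had 65.3, 65.4 and 56.1 CPM in LB and 136.5, 60.1 and 78.4 CPM in AB, a log2 fold change of -0.57 (SE 0.31; edgeR, adjusted p = 0.949).

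Genes of auxin, cytokinin and brassinosteroid turnover did not pass the test either. NewGene_11922, a homolog of DAO, the dioxygenase that oxidises auxin, had 2.55, 1.66 and 1.32 CPM in LB and 1.51, 0.385 and 0.274 CPM in AB. Its log2 fold change was 1.33 (SE 0.71; edgeR, adjusted p = 0.949), and the groups overlapped through AB replicate 1. The value was 2.46 without AB replicate 1 and 1.00 without AB replicate 3. Other DAO homologs did not share this difference. Cula0007806 had 4.46, 3.36 and 3.66 CPM in LB and 4.62, 3.24 and 4.07 CPM in AB, a log2 fold change of -0.07 (SE 0.27; edgeR, adjusted p = 0.991). NewGene_15463 had at most 1.35 CPM in any bud library and a log2 fold change of -0.04 (SE 1.56), and Cula0018198 did not pass the filter. UGT85A1, a cytokinin glucosyltransferase (Cula0012956), had 3.47, 0.942 and 1.87 CPM in LB and 2.35, 1.22 and 4.42 CPM in AB, and the groups overlapped.

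BAS1 is a P450 that inactivates brassinosteroids, and 4 homologs were tested. Cula0034399 had 5.79, 6.59 and 6.22 CPM in LB and 5.39, 4.62 and 5.17 CPM in AB, with no overlap and a log2 fold change of 0.28 (SE 0.20; edgeR, adjusted p = 0.949). Cula0022875 had 26.8, 23.6 and 20.6 CPM in LB and 15.9, 24.0 and 79.1 CPM in AB, and 108.2, 100.8 and 125 CPM in UP. AB replicate 3 stood toward UP for this gene, and the log2 fold change of -0.75 (SE 0.58; edgeR, adjusted p = 0.956) became 0.26 without it. The other homologs, Cula0030167 and Cula0015277, had at most 1.12 CPM in any bud library, with log2 fold changes of -0.28 (SE 0.50) and -0.21 (SE 0.50). DWF4, a P450 of brassinosteroid synthesis (Cula0009250), had 1.96, 0.377 and 0.403 CPM in LB and 0.525, 0.193 and 0.509 CPM in AB, so its log2 fold change of 1.15 (SE 0.82) rested on LB replicate 1 and was -0.06 without it.

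Other genes named by the study included some with larger values. ODO1, a MYB factor of the phenylpropanoid pathway in petunia (Cula0001466), had 10.9, 8.70 and 7.26 CPM in LB and 5.57, 4.24 and 2.58 CPM in AB, with no overlap. Its log2 fold change was 1.10 (SE 0.35; edgeR, unadjusted p = 0.0169, adjusted p = 0.949) and 0.89 without AB replicate 3. CYP709B2 (Cula0026065) had 25.5, 23.6 and 10.7 CPM in LB and 14.4, 7.64 and 4.27 CPM in AB, a log2 fold change of 1.17 (SE 0.53; edgeR, adjusted p = 0.949), and the groups overlapped. The value was 0.89 without AB replicate 3 and 1.74 without AB replicate 1. SD25, a receptor-like kinase (Cula0018899), had a log2 fold change of 0.98 (SE 0.54). ABCC10, an ABC transporter (Cula0015898), had 0.922, 0.879 and 1.497 CPM in LB and 1.02, 1.67 and 4.31 CPM in AB, and its log2 fold change moved from -1.08 (SE 0.60) to -0.28 without AB replicate 3.

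**Figure D5:**
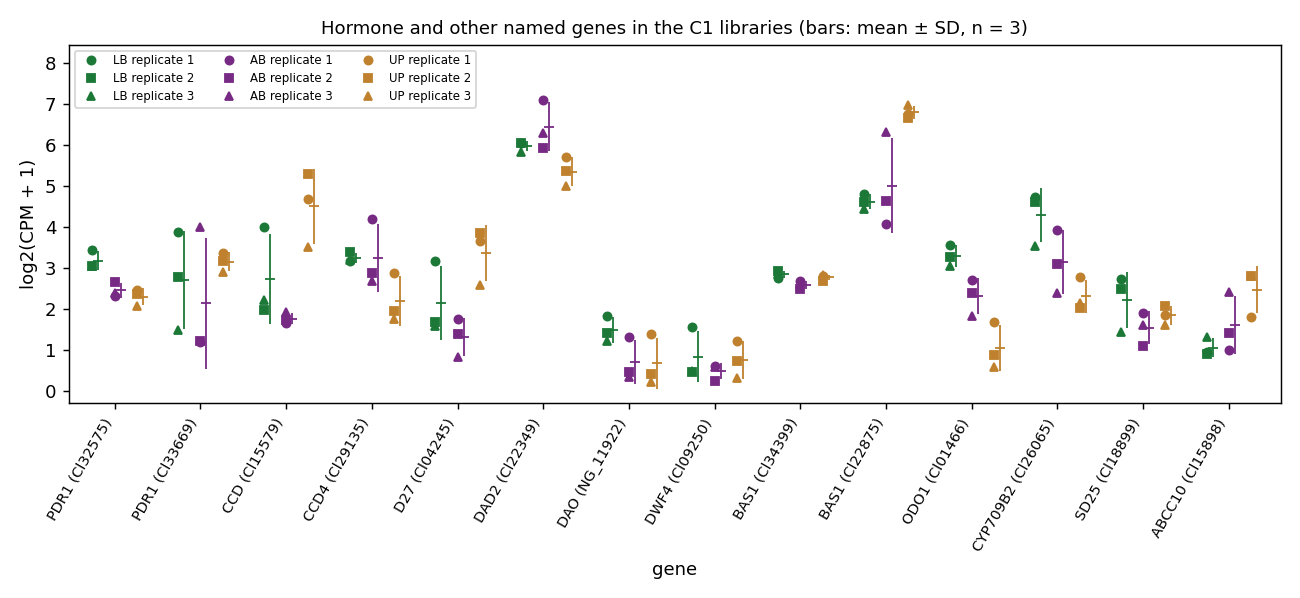
Levels of 14 hormone and other named genes as log2(CPM + 1) in the C1 libraries, with colours for tissues, symbols for replicates and bars for the mean ± SD (n = 3). LB lies above AB without overlap for PDR1 (Cula0032575), CCD, BAS1 (Cula0034399) and ODO1. The genes shown were picked from a longer list of named genes, and 4.6% of all genes tested lie above without overlap. AB replicate 3 stands apart for BAS1 (Cula0022875) and for the other PDR1 homolog.

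The same comparison in C11 gave 0 calls among 24247 genes with edgeR (0.0%) and 0 with DESeq2 (0.0%). Genes below an unadjusted p of 0.05 numbered 203 with edgeR (0.837%). The LB and AB libraries of C11 varied in pairs by number, which those of C1 did not. A fit of C11 with that number as a replicate block had 1249 genes below this p and 0 calls. The difference between the clones was tested in 1 model of all 18 libraries. C11 was sampled more days after apical bud sprouting than C1, so clone and sampling day cannot be told apart. edgeR called 0 of 27174 genes (0.0%), and 420 (1.55%) were below an unadjusted p of 0.05, or 1027 with the replicate block, which called 0. DESeq2 called 14 genes (0.0515%). In C11, PDR1 (Cula0032575) had a log2 fold change of 0.36 and ODO1 (Cula0001466) of 0.37, with an adjusted p for the difference between clones of 1.0 for both (edgeR). CYP709B2 (Cula0026065) had the other sign in C11, at -0.32 (SE 0.32). Among the unnamed genes with the smallest p in C1, Cula0000890 was lower in LB without overlap in C11 too. Its value there was -1.19 (SE 0.31; edgeR, adjusted p = 0.9999). The groups overlapped in C11 for Cula0011886 at -0.07 (SE 0.83), Cula0027179 at 1.195 (SE 1.07) and NewGene_3286 at 0.34 (SE 0.59). The 20 hub genes had a median of -0.0131 in C11, with 10 of 20 higher in LB.

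The UP comparisons of C1 give a scale for these counts, although each shares 1 bud's libraries with LB against AB. UP against LB gave 1958 called genes (edgeR, 8.18% of 23922), and UP against AB gave 0 of 23553 (0.0%). In the latter, 4122 genes (17.5%) were below an unadjusted p of 0.05 with edgeR, and DESeq2 called 1400 (5.94%). Without AB replicate 3, UP against AB gave 435. Of the 35 genes that DESeq2 called higher in LB than in AB, the UP mean lay between the bud means for 20, below both for 12 and above both for 3 (57.1%, 34.3% and 8.57%). Over all genes with a higher mean in LB these shares were 21.5%, 47.1% and 31.4%. Of the 89 called lower, the UP mean lay above both for 49, between for 35 and below both for 5 (55.1%, 39.3% and 5.62%). Over all genes with a lower mean in LB these shares were 44.3%, 20.4% and 35.2%. The called genes were chosen for a change of 2-fold or more between the buds. A wider gap leaves more room for the UP mean to lie between, so their shares cannot be compared with those over all genes.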

How the data were processed

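RNA was poly(A)-selected and sequenced as paired-end reads, which the authors aligned with Hisat2 to the C. lanceolata reference genome. The authors deposited raw counts per gene, not normalised, for 18 libraries in 6 groups. The counting program, the handling of strand and of reads with several matches are not stated in the methods or labels, so members of gene families may share reads. Groups came from the sample labels, and all 18 columns matched a sample. The main test was edgeR 4.0.16 (R 4.3.3; filterByExpr, TMM, quasi-likelihood F test, Benjamini-Hochberg adjustment over all genes tested) on the 6 LB and AB libraries of C1, and SE is the absolute log2 fold change over the square root of F. DESeq2 1.42.0 was an alternative, as were other size factors, other filters, a replicate block, 1 fit of all 18 libraries and each library left out. CPM levels used TMM factors of all 18 libraries, with a pseudocount of 1 on the log2 scale. The fits were tested on simulated counts. Deviations from the group means of LB and AB libraries with the same number correlated at 0.626, 0.475 and 0.741 in C11, so the numbers were taken to pair its libraries, and at 0.251, -0.134 and -0.282 in C1, where they were not. P-values measure only the spread between these samples.

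The genes and lists were chosen with earlier results of these data known. Named genes were those of the study's hub table and text, the 2 in each direction with the smallest unadjusted p, and list members that a tool called. The names of the strigolactone genes, and of the DAO homologs other than NewGene_11922, were those of the study's pathway drawing, as read in earlier work on these data. No text source used here pairs them with these identifiers. No genome or sequence was used here.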

Additional observations from a re-analysis of the deposited data

How the results depend on the processing

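The edgeR count for LB against AB in C1 stayed at 0 under other size factors, both other filters, the replicate block and each left-out library. The fit of all 18 libraries called 1 gene, which the filter on 6 libraries left out. DESeq2 called 124 genes, and 345 with LB replicate 3 and AB replicate 2 both left out, an alternative chosen after seeing the data. DESeq2 called 73, 74 and 293 genes without LB replicates 1, 2 and 3, and 328, 408 and 117 without AB replicates 1, 2 and 3. These fits were also chosen then, and the cause of these differences was not tested. UP against AB in C1 gave 1400 genes with DESeq2, 1 in the fit of all 18 libraries, and 0 to 435 with a library left out. UP against LB in C1 gave 1958, 39 in the fit of all 18 libraries, and 590 to 2045 with a library left out. DESeq2 called 14 genes for the difference between the clones.

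The replicate numbers did not pair LB with AB in C1. The correlation of deviations from the group means was 0.251, -0.134 and -0.282 for replicates 1, 2 and 3. With the replicate block edgeR called 0 genes in LB against AB in C1 and in C11, 0 for the difference between the clones and 189 in UP against AB in C1.

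Over 27 genes, directions were kept except as follows. With LB replicate 3 and AB replicate 2 both left out, KCS1 (Cula0031243) had -0.18 (DESeq2 -0.19), DCR (Cula0008822) -0.12 (DESeq2 -0.12) and ABCG11 (Cula0028169) -0.0294 (DESeq2 -0.038), and BAS1 (Cula0015277) 0.0036 with edgeR. With each library left out, edgeR gave -0.036 to 1.11 for KCS1, -1.13 to 0.26 for BAS1 (Cula0022875), -0.061 to 1.52 for DWF4 (Cula0009250), -0.92 to 0.26 for UGT85A1 (Cula0012956), -0.56 to 0.19 for BAS1 (Cula0030167) and -0.62 to 2.45 for PDR1 (Cula0033669). DESeq2 gave -0.63, -0.19 and -0.18 for that PDR1 homolog without LB replicate 1, AB replicate 1 and AB replicate 2. It gave -0.018 for KCS1 without AB replicate 2, and -0.057 for KCS1, 0.24 for BAS1 (Cula0022875) and 0.24 for UGT85A1 without AB replicate 3. It gave 0.20 for BAS1 (Cula0030167) without AB replicate 1. It also gave -0.076 for DWF4 without LB replicate 1 and 0.0096 for UGT85A1 without LB replicate 2.

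The median absolute log2 difference between libraries was 0.303 for LB with AB, 0.311 within AB and 0.263 within LB, and 0.371, 0.388 and 0.321 with a pseudocount of 0.1, or 0.188, 0.192 and 0.166 with 5. Low counts and 3 libraries a group limit the precision.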
